A study of Rattus norvegicus with 24 samples.

Results

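The genes described here encode the proteins of the cytosolic ribosome. A probe was taken as a member when the platform's gene symbol began with Rpl or Rps and a digit, or with Rplp, kinases with symbols in Rps6k being left out, and when it was detected (detection p under 0.05) on at least 6 of the 24 arrays. The symbols matched 67 probes, of which 62 probes for 61 genes passed the detection filter, out of 10193 probes tested, with symbols for 7345 genes, and 22523 probes on the array. The members were 31 probes for large subunit proteins, 22 for small subunit proteins, 3 for the stalk proteins Rplp0, Rplp1 and Rplp2, and 5 for paralogs by their symbol (Rpl22l1, Rpl36al1, Rpl37l1, Rpl3l and Rpl7l1). The remaining member, Rps19bp1, encodes a protein that binds a ribosomal protein and is no subunit. Only Rps9 had 2 probes. The 5 probes left out were those of Rpl11 (detected on 1 array), Rpl12 (3 arrays), Rps19 (2 arrays), Rpl34 and Rpl36a (0 arrays each). The member nearest to the limit was Rplp2, detected on 11 arrays, and the nearest probe left out was that of Rpl12. Of the members, 59 were detected on all 24 arrays.

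The arrays held RNA of colonic epithelial cells, released from proximal and distal colon with chelating agents, of Sprague Dawley rats aged 8 months. The groups were rats born with intra-uterine growth retardation (IUGR) and fed a high-fat diet (RHFD, 3 samples), control-born rats fed the high-fat diet (CHFD, 5 samples), IUGR rats fed chow (RND, 6 samples) and control-born rats fed chow (CND, 6 samples). Each group had 6 arrays, 3 on each of 2 chips, and arrays sharing a title number were counted as 1 sample. Sample levels below are means over such arrays. Each RHFD sample and CHFD 10B is thus a mean of 2 arrays, 1 per chip, and every other sample is 1 array. Spreads and overlaps of groups therefore set means of 2 arrays beside single arrays. The labels do not say whether samples came from separate animals, so p-values measure only the spread between these samples. Between 8303 and 9872 probes were detected per array, and mean signal ranged from 309 to 571. General markers of epithelium did not pass the threshold in any comparison (0 of 9 probes in each). With the high-fat diet averaged over birth status 4.28% of all probes passed. All 12 markers of T and NK cells and all 8 of macrophages and dendritic cells rose there. Among markers of epithelial cell types, 1 of 8 surface colonocyte probes and 1 of 13 crypt probes fell. Of 5 goblet cell probes 1 rose and 1 fell. In bulk RNA of this kind, fewer cells of a type and less RNA per cell cannot be told apart.

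Ribosomal proteins assemble with ribosomal RNA into the large and the small subunit, the machines that translate messenger RNA. The stalk proteins form the flexible arm of the large subunit that recruits translation factors. Their messenger RNAs typically start with a run of pyrimidines, the 5′ terminal oligopyrimidine (TOP) tract, through which growth signals acting by mTOR control their translation. In the intestine, demand for ribosomes is known to be high in the dividing cells of the crypt.

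Sequence at the annotated start was read from RefSeq promoters on GRCr8 for the 50 of the 61 member genes that the table holds. The lines give the 20 bases before the start and the first 10 bases of the transcript, 5′ to 3′ on the gene's strand, and capitals mark the longest run of C and T of at least 5 bases that touches the 10 bases on either side of the start. The first 7 genes are ones whose levels are described below, and the last 3 are members in which no run of that length was found.
Rplp0 (chr12:46718381-46718410, minus strand): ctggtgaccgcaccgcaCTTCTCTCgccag
Rplp1 (chr8:71290863-71290892, minus strand): tgcgcgcaggcgcatgtgaTCCTTTCCTCa
Rpl31 (chr9:49143091-49143120, plus strand): ccatcccacaatccctcgcgCCTTTCCTTT
Rps2 (chr10:14251828-14251857, plus strand): gCCTCCCTCTTCTTTTTCTTCgggaaaaca
Rps21 (chr3:187724018-187724047, plus strand): tggaagaacgagccaCTTCCTTTCTgtgtt
Rps24 (chr16:96497-96526, plus strand): ggcagtgagcggTCCTCTTTTCCTCCTTTa
Rps9 (chr1:74430428-74430457, minus strand): cgcgatccggcggccacgTTTCTCTTTgtc
Rpl41 (chr7:1563488-1563517, minus strand): gaaggggcggctcggaagtgacgacaccaa
Rpl22l1 (chr2:113683176-113683205, plus strand): tgagcgctccgtggatatccggttccgagt
Rps19bp1 (chr7:113693014-113693043, minus strand): actcgcagcgtgtgggcggggcttggcagc

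A run of at least 5 pyrimidines was found in 44 of the 50 genes (88.0%), against 43.22% of the 27457 genes in the promoter table, on the gene's own strand only. A run of at least 8 was found in 36 (72.0%), against 13.17% of all genes. The median run was 10 bases among the members and 4 among all genes. Subunit genes held a run of 5 in 41 of 45 cases, and the paralogs with Rps19bp1 in 3 of 5. These are matches of letters at an annotated start, not measured transcript ends.

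Most ribosomal protein probes varied less between samples than the typical probe, and most moved together. All levels are log2 values after background correction and quantile normalization. The SD over the 20 samples, once group and chip means were removed, had a median of 0.22 among the members, against 0.28 over all probes tested. The smallest was 0.119 for Rpl19, followed by Rpl41 at 0.122, Rps20 at 0.125 and Rpl32 at 0.132, all genes of core subunit proteins. These are bright members, with mean levels of 13.19, 14.54, 13.41 and 13.92. The dim member Rps16 (mean level 5.495) had a wider SD of 0.447, though that of Rplp2 (4.817) was 0.2687. Members and all probes were not matched for signal level, and the part of signal level in the lower spread was not tested. Rpl41, which encodes a very small basic peptide of the large subunit, had levels of 14.55, 14.46 and 14.51 in RHFD and of 14.35, 14.60, 14.64, 14.38 and 14.64 in CHFD. Its levels ran from 14.50 through a median of 14.64 to 14.73 in RND, and from 14.27 through 14.53 to 14.69 in CND, so that all 4 groups overlapped. Rplp0, the scaffold of the stalk and a common reference gene, gave 14.90, 14.94 and 14.90 in RHFD and 14.86, 15.13, 14.96, 14.64 and 14.94 in CHFD. Its levels ran from 14.82 through a median of 14.97 to 15.13 in RND, and from 14.37 through 14.86 to 15.13 in CND. Its intensity before normalization was 17811 to 38277, where the brightest probe of an array reached 34922 to 44386. Whether the scanner's range compressed the brightest members was not tested.

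Over the 1891 pairs of members, Pearson's r across the 20 samples, after group and chip means were removed, had a median of 0.37. Of these pairs 34.69% exceeded 0.5. Over all pairs of probes tested the median was -0.001, and 7.012% of pairs exceeded 0.5. The points share arrays, chips and normalization, so these values are descriptions. The highest pairs of different genes were Rplp1 with Rps15 (r = 0.94), Rpl13 with Rpl27 (0.93) and Rpl27 with Rps15 (0.93), which join proteins of both subunits and the stalk. By the same measure 27 probes for translation factors and other TOP messenger RNAs had a median of 0.46, and 36 probes for ribosome biogenesis 0.25. Markers of T and NK cells had 0.69 and crypt markers 0.48, so co-variation of this size was not particular to ribosomal proteins.

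**Figure D1:**
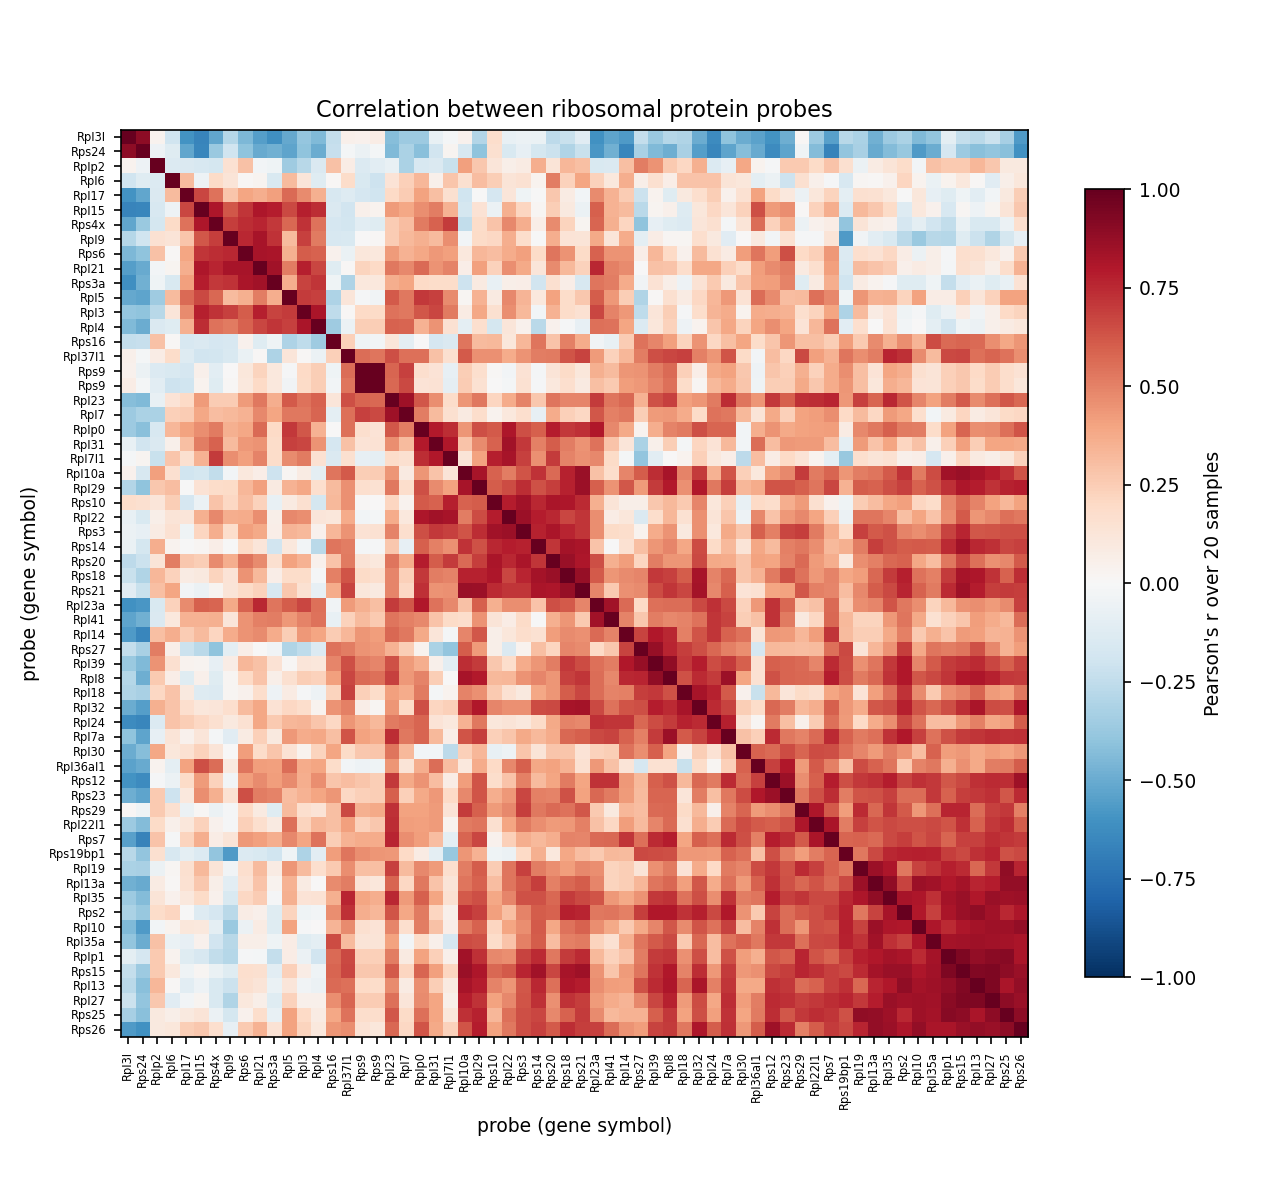
Pearson's r between the 62 ribosomal protein probes over 20 samples, after group and chip means were removed, with probes ordered by average-linkage clustering on both axes. Most pairs are positive (median 0.37), and Rpl3l and Rps24 form a pair at the top left that runs against most of the others.

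Members whose median correlation with the other members was under 0.1 were Rpl3l, Rps24, Rps3a, Rpl9 and Rplp2. Rps24, a small subunit protein, and Rpl3l, a paralog of Rpl3 known from heart and skeletal muscle, followed each other (r = 0.89). Both ran against the rest, with a median r of -0.41 for Rps24 and -0.36 for Rpl3l against the members outside these 5. Their probes were dimmer than most members, with mean levels of 7.386 and 6.446, though detected on all 24 arrays. The part of signal level in these correlations was not tested. Rps24 had levels of 7.96, 7.08 and 7.77 in RHFD and of 7.64, 7.53, 7.55, 7.61 and 6.82 in CHFD. In RND its levels ran from 6.63 through a median of 7.15 to 7.66, and in CND from 6.95 through 7.65 to 7.90. The groups overlapped. Rpl3l had levels of 6.83, 6.07 and 6.53 in RHFD and of 6.78, 6.65, 6.71, 6.78 and 6.02 in CHFD. CHFD 28B was the lowest CHFD sample for both genes.

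The largest spread among the members belonged to Rps9 and Rpl30, whose levels fell into 2 separate sets in every group. Rps9 encodes a small subunit protein (GRCr8 chr1:74427084-74430513, matched by symbol), and Rpl30 a large subunit protein (chr7:67533420-67536555). On the first Rps9 probe, ILMN_2038795, the levels were 11.04, 5.22 and 11.62 in RHFD, and 4.41, 5.45, 10.83, 9.91 and 10.93 in CHFD. In RND they ran from 5.20 through a median of 9.97 to 10.83, and in CND from 4.40 through 10.12 to 11.11. No array lay between 5.79 and 9.87 on this probe. The second Rps9 probe, ILMN_2038796, gave 12.75, 8.86 and 13.02 in RHFD and 7.79, 8.55, 12.37, 11.87 and 12.15 in CHFD. Its levels ran from 8.83 through a median of 12.13 to 12.26 in RND, and from 7.96 through 12.11 to 12.40 in CND.

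The same 7 samples were low on both Rps9 probes, and the other 13 were high. The low samples were RHFD 21B, CHFD 4A, CHFD 8B, RND 35B, RND 39B, CND 36B and CND 38B, so 1 of 3 RHFD, 2 of 5 CHFD, 2 of 6 RND and 2 of 6 CND samples were low. Intensity on ILMN_2038795 was 86 to 137 on the 8 arrays of the low samples, of which 5 were detected, and 818 to 4336 on the 16 arrays of the high samples. On ILMN_2038796 it was 246 to 895 in the low samples, all of whose 8 arrays were detected, and 2883 to 9357 in the high samples.

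For Rpl30 the levels were 5.64, 11.26 and 10.98 in RHFD and 4.93, 10.80, 11.22, 10.93 and 11.47 in CHFD. In RND they ran from 5.36 through a median of 10.49 to 11.46, and in CND from 5.87 through 11.15 to 11.56. The 5 low samples were RHFD 3A, CHFD 4A, RND 33B, RND 35B and CND 36B, with intensities of 104 to 205, against 1129 to 3617 in the 15 high samples. All 6 arrays of the low samples were detected. The low samples of Rps9 and Rpl30 overlapped in part: 3 samples were low for both genes, 4 for Rps9 alone, 2 for Rpl30 alone, and 11 were high for both. Each of the 4 pairs of arrays with a shared title number, which lay on different chips, fell on the same side for both genes.

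A gap of more than 2 log2 units between neighbouring samples in the order of levels was found for 3 of the 62 members, these 3 probes, and for 31 of all 10193 probes tested (0.3041%). With at least 3 samples on each side there were 20 such probes among those tested, of which 12 had a gene symbol. Chosen after the values were seen, the probes most like the first Rps9 probe over the 20 samples were, beside the second, 2 to which the platform gives no symbol, ILMN_1365113 (r = 0.99) and ILMN_1353766 (r = 0.97). For Rpl30 the strongest likeness was a negative one with Acvr1b (r = -0.83). These r for Rps9 and Rpl30 were taken over the levels themselves, without removing group and chip means. The wide spread set the precision of these genes in every comparison: with the high-fat diet in IUGR rats, the 95% confidence interval of the log2 difference was -2.95 to 4.09 for the first Rps9 probe and -3.01 to 3.15 for Rpl30. The counts over 62 members below include these 3 probes. Since most members moved together, a count of members above or below 0 is not a count of separate observations.

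The high-fat diet was first compared with chow in control-born rats. None of the 62 members passed the threshold (adjusted p under 0.05 in limma, Benjamini-Hochberg over all 10193 probes), where 1.3% of all probes did. At an unadjusted p under 0.05 the count was 0 as well, against 10.8% of all probes. The log2 difference of CHFD minus CND was above 0 for 45 members and below 0 for 17, with a median of 0.05 among the members and -0.0016 over all probes. The members with the smallest p were Rpl13a (log2 difference 0.29, SE 0.16, adjusted p = 0.53 in limma) and Rplp2 (-0.28, SE 0.17, adjusted p = 0.61), whose probe was detected on 0 of 6 CHFD arrays. Rpl13a, a large subunit protein known also for a role in silencing inflammatory transcripts, had levels of 10.90, 11.47, 11.30, 10.91 and 11.36 in CHFD. In CND they ran from 10.64 through a median of 10.74 to 11.43, and the groups overlapped. The 95% confidence interval stayed within 1.5-fold either way for 50 of the 62 members, against 61.74% of all probes, and within 2-fold for 59. No member had levels that kept CHFD and CND apart, where 1.71% of all probes did.

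In the same comparison 8 of 12 markers of T and NK cells and 6 of 8 of macrophages and dendritic cells rose. The T and NK markers had a median log2 difference of 1.68, with all 12 above 0, and the part of these cells in the ribosomal protein levels was not tested. With median scaling in place of quantile normalization the median was -0.03 and 19 members were above 0, where the median of all probes was -0.10. Leaving out CHFD 10B gave 28 members above 0, and leaving out CND 36B and CND 38B together gave 13, with a median of -0.07. These 2 CND samples were picked because their member levels were low, so a lower difference follows from that choice.

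In IUGR rats the diet again moved no member past the threshold (0 of 62, against 0.883% of all probes). The log2 difference of RHFD minus RND was above 0 for 24 members and below 0 for 38, with a median of -0.03, against -0.0040 over all probes. The direction differed between the chips: on chip 1 alone 16 members were above 0 (median -0.13), and on chip 2 alone 37 (median 0.04). The same 3 RHFD samples were on both chips, whereas each RND sample was on 1 chip, so the chips are not separate observations of RHFD. Mean member levels on chips 1 and 2, without Rps9 and Rpl30, were 11.72 and 11.75 in RHFD and 11.84 and 11.71 in RND. Median scaling gave 7 members above 0 and a median of -0.26, where the median of all probes was -0.10. Only Rps6 had an unadjusted p under 0.05, where 9.56% of all probes did. Rps6, the small subunit protein whose phosphorylation by S6 kinase is a common readout of mTOR activity, had levels of 13.01, 12.89 and 12.57 in RHFD, and in RND from 12.17 through a median of 12.51 to 12.73. The log2 difference was 0.35 (SE 0.16, adjusted p = 0.48 in limma), and RHFD 25B lay inside the range of RND. Rpl7a, a large subunit protein, was the only member whose samples did not overlap, with 12.67, 12.73 and 12.81 in RHFD, against 12.87 through a median of 12.93 to 13.00 in RND. Such a lack of overlap was found for 5.99% of all probes, and its log2 difference was -0.19 (SE 0.14, adjusted p = 0.73 in limma). The interval stayed within 1.5-fold for 45 members, against 46.96% of all probes. With only 3 RHFD samples the spread of that group is poorly known.

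With the diet averaged over birth status, 4.28% of all probes and 0 of 62 members passed. The median of the members was 0.0019, with 32 above and 30 below 0, but this split changed with the processing and with the samples used. Median scaling gave 6 members above 0 and a median of -0.15, where the median of all probes was -0.10. Without CND 36B and CND 38B 14 members were above 0, with a median of -0.07, a fall that follows from picking samples with low member levels. On chip 1 alone 27 were above 0 (median -0.02), and on chip 2 alone 44 (median 0.08). The stalk protein Rplp2 (log2 difference -0.33, SE 0.13, adjusted p = 0.19 in limma) and Rps6 (0.24, SE 0.11, adjusted p = 0.32) had unadjusted p-values under 0.05, as did 13.9% of all probes. Rplp2 was dim: its probe was detected on 3 RHFD, 0 CHFD, 5 RND and 3 CND arrays, so the CHFD level is only a bound. Levels were 4.74, 4.93 and 4.57 in RHFD and 4.44, 4.52, 4.65, 4.53 and 4.46 in CHFD. They ran from 4.44 through a median of 5.14 to 5.59 in RND, and from 4.54 through 4.79 to 5.04 in CND.

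For IUGR on chow no member passed the threshold (0 of 62, against 0.0% of all probes). The log2 difference of RND minus CND was above 0 for 48 members, or 77.42%, against 51.24% of all probes, with a median of 0.14 among the members and 0.01 over all probes. By role, 25 of 31 large subunit probes, 17 of 22 small subunit probes and 3 of 3 stalk probes were above 0, and 2 of 5 paralogs. The members moved together across samples (median r 0.37), so these counts are descriptions and not 62 separate observations. In all, 6 of 62 members had an unadjusted p under 0.05, against 12.1% of all probes. No member had levels that kept RND and CND apart, where 0.755% of all probes did.

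Rpl37l1, by its symbol a paralog of the large subunit protein Rpl37, had levels from 9.71 through a median of 10.21 to 11.02 in RND, against 9.18 through 9.79 to 10.34 in CND. The log2 difference was 0.53 (SE 0.19, adjusted p = 0.28 in limma). For Rpl7a the levels were 12.87, 12.93 and 13.00 (lowest, median and highest) in RND and 12.35, 12.60 and 13.04 in CND. It was higher by 0.33 on the log2 scale (SE 0.12, adjusted p = 0.28 in limma), and CND 32B alone among the control samples reached the RND levels. Rps2, a small subunit protein at the entry of the messenger RNA channel, ran from 10.16 through 10.27 to 10.97 in RND, against 9.31 through 9.76 to 10.40 in CND. The log2 difference was 0.54 (SE 0.22, adjusted p = 0.33 in limma), and the groups overlapped. Rps21, a small subunit protein, differed by 0.33 (SE 0.13) and Rpl31, a large subunit protein near the exit of the nascent chain, by 0.44 (SE 0.18), with adjusted p of 0.33 and 0.35 in limma. The member with an unadjusted p under 0.05 in the other direction was Rps3a, a small subunit protein, with 12.12 through 12.46 to 12.99 in RND, against 12.56 through 12.83 to 12.94 in CND (log2 difference -0.31, SE 0.15, adjusted p = 0.40 in limma).

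**Figure D2:**
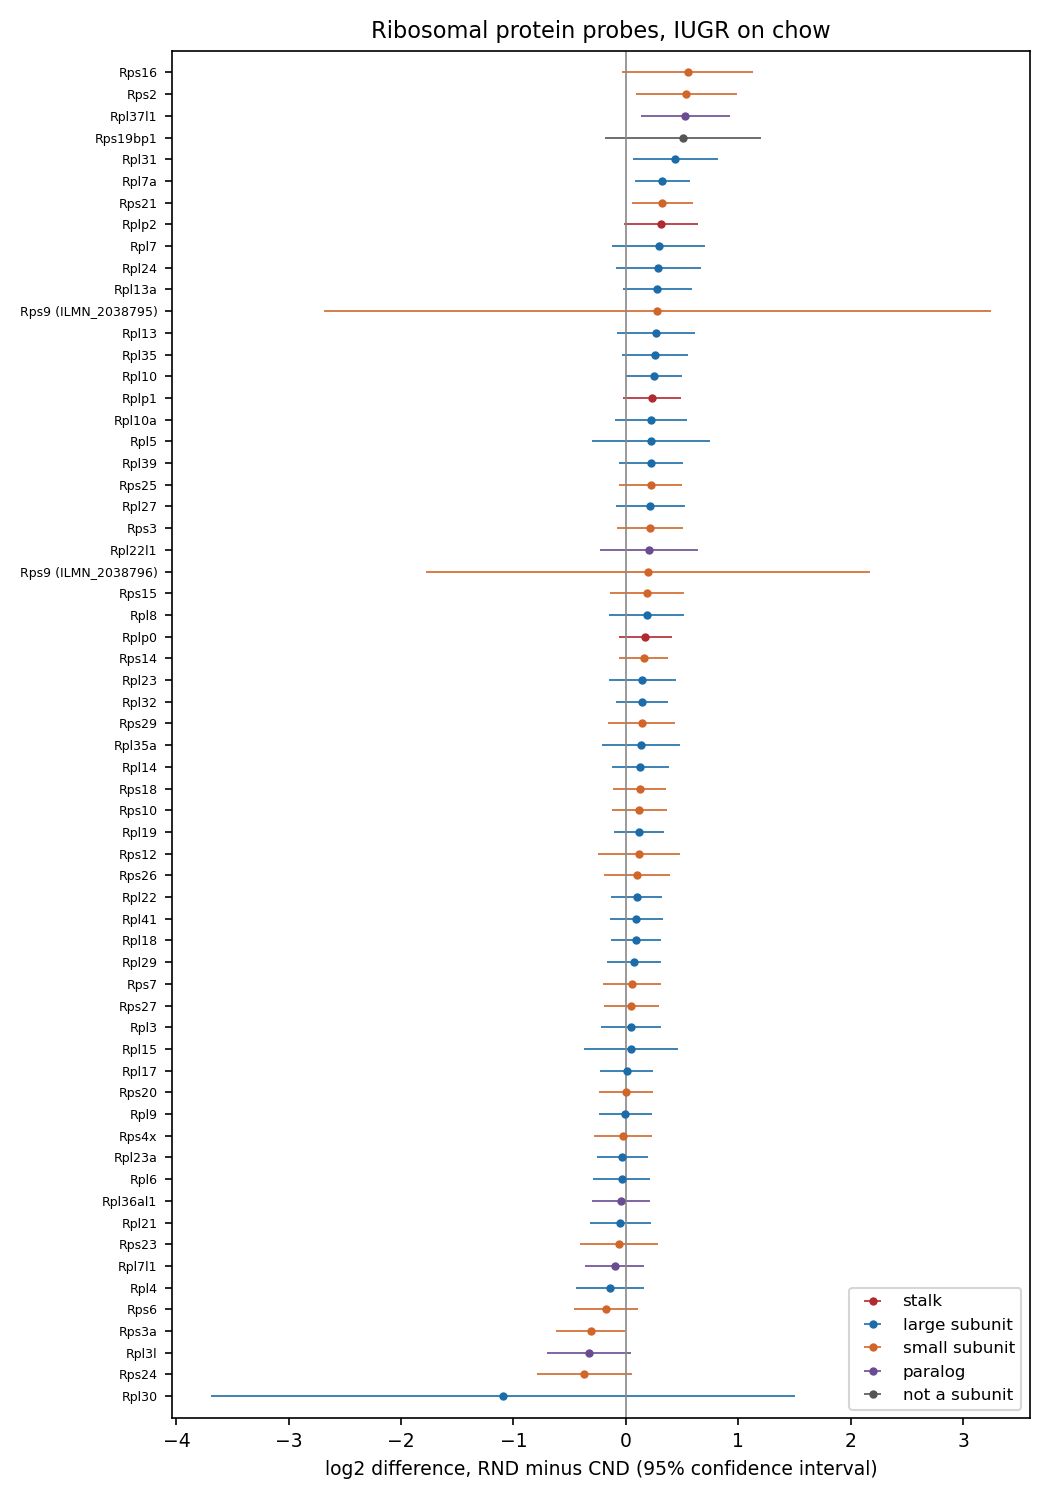
Log2 difference of RND minus CND for each of the 62 ribosomal protein probes with its 95% confidence interval, ordered by size and coloured by role. Most estimates lie right of 0 (48 of 62), most intervals cross it, and those of Rps9 and Rpl30 are wider than all the others.

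The size of this lean depended on which samples were included. Over the 59 members other than the Rps9 and Rpl30 probes, the mean level was 11.77 ± 0.09 in RND (SD, n = 6) and 11.64 ± 0.22 in CND (SD, n = 6). The lowest samples of all 20 were CND 38B at 11.40 and CND 36B at 11.38, both on chip 2, while the other 4 CND samples lay at 11.68, 11.89, 11.66 and 11.85. The letter in the titles of CND samples is A on chip 1 and B on chip 2, which confounds the letter with the chip in that group. These 2 samples were also the highest of all 20 in the mean level of the epithelium markers (13.30 in CND 38B and 13.43 in CND 36B) and of the mature surface colonocyte markers (12.62 and 13.05). Their ribosome biogenesis means, 7.10 and 7.06, were among the 3 lowest, and their crypt marker means were 6.78 and 6.95, in a range of 6.52 to 7.81 over all samples. The part of these differences in the ribosomal protein levels was not tested. Without these 2 samples 32 of 62 members were above 0, with a median of 0.005. They were left out because their levels were low, so a smaller difference follows from that choice. Without CND 36B alone the count was 42 and the median 0.08, and without CND 38B alone 42 and 0.09. They were 53 and 0.18 without CND 18A, 50 and 0.18 without CND 32B, and 46 and 0.10 without RND 17B. On chip 1 alone 40 members were above 0 (median 0.10), and on chip 2 alone 58 (median 0.17). Median scaling gave 57 members above 0 and a median of 0.31, where the median of all probes was 0.06. In the same comparison all 8 markers of macrophages and dendritic cells and all 12 of T and NK cells had log2 differences above 0, with medians of 0.62 and 0.50, and none passed; their part in the ribosomal protein levels was not tested.

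**Figure D3:**
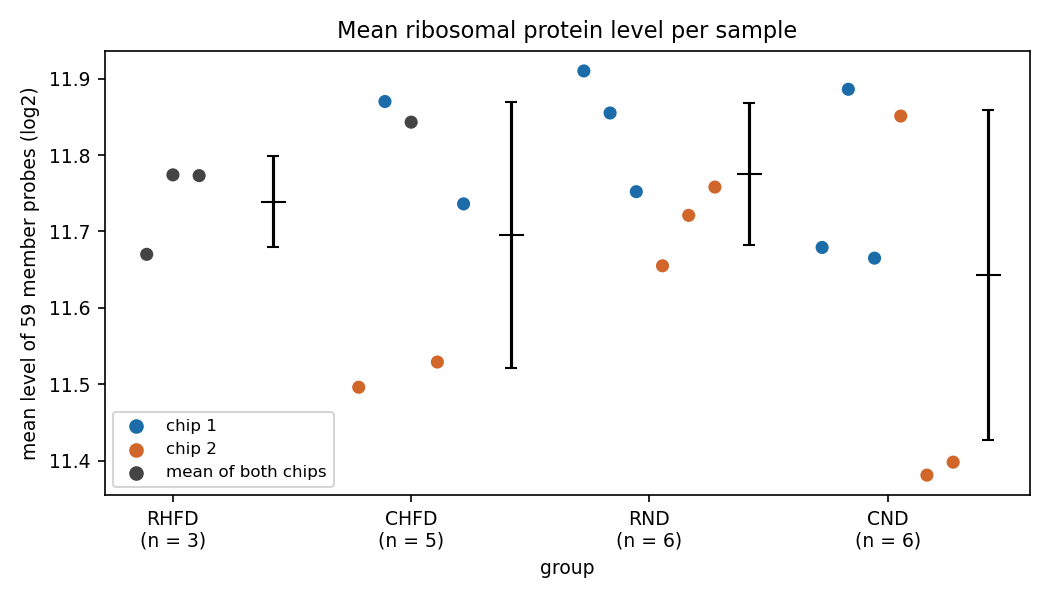
Mean log2 level of 59 ribosomal protein probes in each sample, by group, with colours for the chip and the group mean ± SD at the right of each group. The 2 lowest samples are CND 36B and CND 38B at 11.38 and 11.40, and the RHFD samples lie between 11.67 and 11.77.

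IUGR on the high-fat diet again gave 0 of 62 members past the threshold, against 0.00981% of all probes. The log2 difference of RHFD minus CHFD was above 0 for 49 members, with a median of 0.04, against 0.0054 over all probes. No member had an unadjusted p under 0.05, where 1.04% of all probes did. Mean levels of the 59 members were 11.74 ± 0.06 in RHFD (SD, n = 3) and 11.70 ± 0.17 in CHFD (SD, n = 5). The RHFD values are means of 2 arrays and, apart from CHFD 10B, the CHFD values are single arrays, so these SDs are not alike. The interval stayed within 1.5-fold for 50 members, against 57.66% of all probes. The samples of RHFD and CHFD overlapped for all 62 members, while 1.41% of all probes kept them apart. Within chip 1 the lean turned round (11 members above 0, median -0.08), and within chip 2 it was 56 members with a median of 0.13. Leaving out CHFD 4A or CHFD 22B gave 32 members above 0 each, and leaving out CHFD 8B or CHFD 10B gave 53 each. CHFD 4A and CHFD 22B had the lowest mean member levels in CHFD (11.50 and 11.53), and CHFD 8B and CHFD 10B the highest (11.87 and 11.84). A smaller or larger lean follows from leaving them out.

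With IUGR averaged over diet 0 of 62 members passed, against 0.00981% of all probes, with 50 members above 0 and a median of 0.09, where 50.11% of all probes were above 0 with a median of 0.00042. Median scaling gave 58 members above 0 and a median of 0.19, where the median of all probes was 0.05. Without CND 36B and CND 38B 37 members were above 0, with a median of 0.02, a fall that follows from picking samples with low member levels. On chip 1 alone 33 were above 0 (median 0.01), and on chip 2 alone 58 (median 0.15). Rpl31 (log2 difference 0.36, SE 0.14) and Rplp2 (0.27, SE 0.13) had an unadjusted p under 0.05, where 4.25% of all probes did, and their adjusted p was 0.9996 in limma. For the interaction, the diet effect in IUGR rats minus that in control rats, 0 of 62 members passed, against 0.0% of all probes. The median was -0.09, against -0.02 over all probes, with 16 members above 0, or 37 with a median of 0.04 when CND 36B and CND 38B were left out. As these samples were picked for their low member levels, that rise follows from the choice. Without CND 36B alone 25 were above 0, with a median of -0.033. The median was also nearer to 0 without CND 38B (-0.037), without CHFD 10B (-0.041), without CHFD 8B (-0.058) and on chip 2 alone (-0.036), and further from 0 without CHFD 4A (-0.14), on chip 1 alone (-0.16) and with median scaling (-0.22). No member had an unadjusted p under 0.05 here, against 4.05% of all probes, and the smallest p belonged to Rps3a (0.43, SE 0.23, adjusted p = 0.97 in limma) and Rps2 (-0.60, SE 0.34). The 7 comparisons share samples, so their leans are not separate observations.

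**Figure D4:**
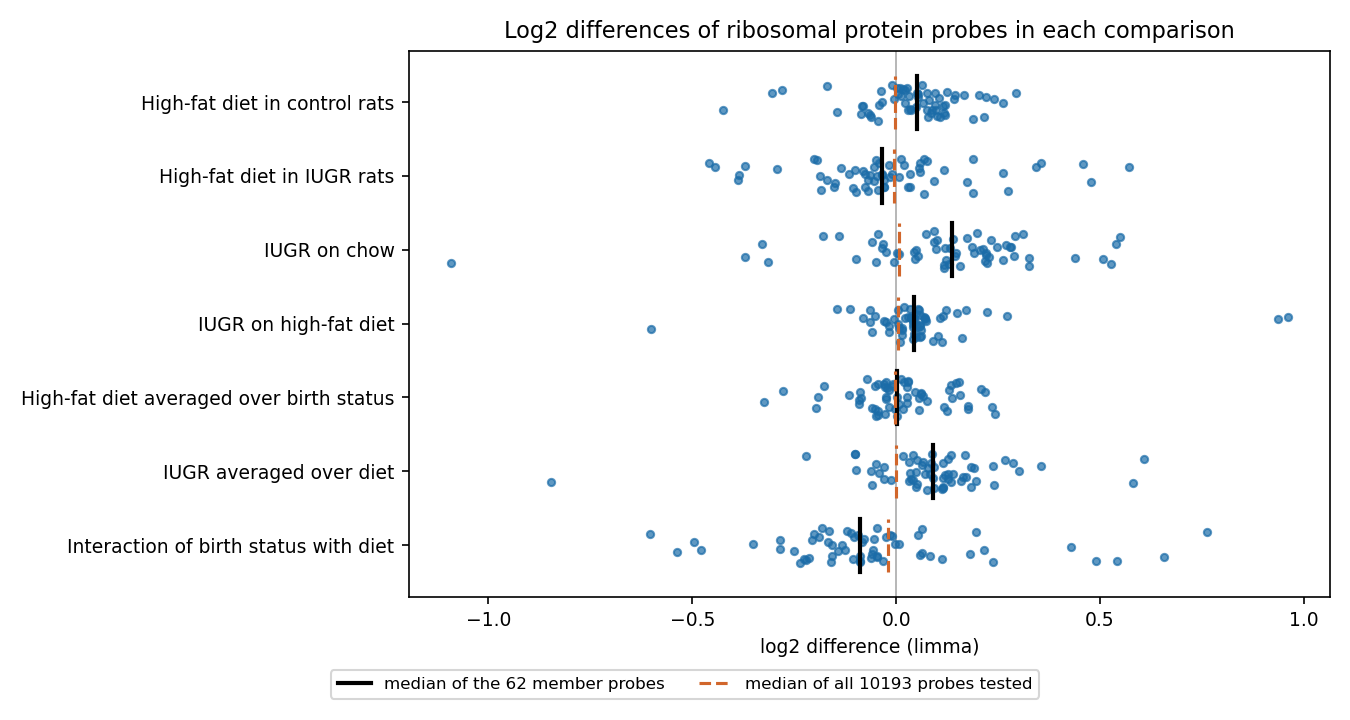
Log2 differences of the 62 ribosomal protein probes (points) in the 7 comparisons, on 1 horizontal axis, with the median of the members (solid line) and of all 10193 probes tested (dashed line). For IUGR on chow the median of the members is 0.14 and that of all probes 0.01, and no point passed the threshold.

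Rpl22l1, a paralog of Rpl22, ran from 5.61 through a median of 5.72 to 5.90 in RND, against 4.87 through 5.58 to 6.05 in CND, and the groups overlapped. Rps19bp1 ran from 5.81 through 6.21 to 6.66 in RND, against 4.81 through 5.73 to 6.50 in CND. Its log2 difference was 0.51 (SE 0.34, adjusted p = 0.55 in limma), and its SD of 0.58 was the largest after Rps9 and Rpl30. Rpl7l1, related to Rpl7, differed by -0.15 with the diet in control rats (SE 0.13, adjusted p = 0.81 in limma). Rpl36al1 differed by 0.16 (SE 0.10) with the diet averaged over birth status, with an adjusted p of 0.55 in limma. Rps4x, the X-linked small subunit protein, differed by 0.15 (SE 0.10) there, with an adjusted p of 0.61 in limma. Ribosomal protein genes have many processed copies in mammalian genomes, and whether a probe reads such copies was not tested.

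Among the other subunit genes with a wide spread were Rps16 (SD 0.447) and Rpl5 (SD 0.426). Both probes were dim, with mean levels of 5.495 and 5.98, though detected on all 24 arrays. Rps16, a small subunit protein, had levels of 5.03, 5.98 and 5.22 in RHFD and of 4.93, 5.37, 5.60, 5.51 and 5.34 in CHFD. Its levels ran from 5.19 through a median of 5.74 to 6.76 in RND, and from 4.87 through 5.34 to 5.67 in CND. The log2 difference for IUGR on chow was 0.55 (SE 0.28, adjusted p = 0.43 in limma), and 3 RND samples lay above every CND sample. Rpl5, which outside the ribosome joins the 5S RNA and Rpl11 in a complex that binds Mdm2, had levels of 5.64, 5.97 and 5.84 in RHFD and of 5.67, 6.52, 5.63, 5.35 and 5.89 in CHFD. It ran from 5.48 through 6.29 to 6.56 in RND, and from 5.49 through 5.97 to 6.55 in CND, nearly the same range. Rplp1, the acidic stalk protein, had levels of 13.05, 13.28 and 13.34 in RHFD and of 12.82, 13.31, 13.43, 12.90 and 13.07 in CHFD. It ran from 13.05 through 13.24 to 13.57 in RND, and from 12.79 through 13.00 to 13.26 in CND, and its log2 difference for IUGR on chow was 0.23 (SE 0.13, adjusted p = 0.45 in limma). Rpl35 and Rps23 had the other small p-values with the diet in control rats, at log2 differences of 0.24 (SE 0.15) and 0.26 (SE 0.18), with adjusted p of 0.64 and 0.68 in limma.

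Other genes of the translation machinery also gave no calls. Of 2 further subunit genes outside the symbol rule, Rpsa and Rack1, a scaffold of signalling proteins on the small subunit, neither passed in any comparison. Rack1 had a log2 difference of 0.35 for IUGR on chow (SE 0.15, adjusted p = 0.36 in limma). Of 27 probes for translation factors and other TOP messenger RNAs, 36 for ribosome biogenesis and 13 for growth control, 0 passed in either direction in any of the 7 comparisons. Over all probes the share that passed ran from 0.0% (IUGR on chow and the interaction) to 4.28% (diet averaged over birth status). In lists of these sizes such shares give few calls or none. For IUGR on chow 10 of the 27 translation factor probes were above 0, with a median of -0.04, and the difference from the ribosomal proteins was not tested. RND 17B had a mean level of 9.76 over these probes, against 10.27 to 10.40 in the other RND samples, and was the highest sample in the mean of the 59 ribosomal protein probes. Eif4a2, an RNA helicase of the initiation complex, had the smallest p of these lists with the diet averaged over birth status, with a log2 difference of 0.52 (SE 0.16, adjusted p = 0.07 in limma). Polr1c, a subunit shared by RNA polymerases I and III, had a log2 difference of 0.40 for IUGR on chow (SE 0.12, adjusted p = 0.24 in limma).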

How the data were processed

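Levels were measured on 24 Illumina rat arrays. For every probe and array the main deposited file gives an average signal intensity, in whole numbers with no background removed, and a detection p-value, per the file headers. A second deposited file, the series matrix, has the intensities after quantile normalization by the authors, as its values show. Arrays were read with GenomeStudio, per the submitters' processing notes; its version is not given in the sources used here. The first file was processed with neqc, which subtracts background and quantile normalizes, at an offset of 16 (limma 3.58.1, R 4.3.3, statmod 1.5.0). Probes detected on at least 6 arrays were fitted with limma, with terms for group and chip and arrays sharing a title number as a random block (correlation 0.812). The Benjamini-Hochberg method adjusted p over 10193 probes within each of 7 comparisons. The fit was tested on simulated data, with shifts larger than most member differences, no chip effect and probes independent of each other. That test does not show how the fit performs on differences as small as those of the members. No title number occurs in 2 groups, so no samples are paired. Symbols came from the platform's table and were matched to RefSeq genes on GRCr8, 60 of 61 genes by gene ID and Rps9 by symbol. The number of arrays limits the precision.

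The members and gene lists were chosen with earlier results of these data known. The text names, in each comparison, members past the threshold or else the 3 with the smallest p in each direction, the stalk genes, the paralogs, the 6 members with the largest and 4 with the smallest SD, and up to 2 genes of each other list by p. Not every gene allowed by this rule is described. Outside the rule, Rps21 and Rpl31 are described for IUGR on chow, and some members for their correlations. The 35 alternatives were 20 fits each without 1 sample and 15 others, of which the one without CND 36B and CND 38B was added after seeing the data.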

Additional observations from a re-analysis of the deposited data

Results flagged for a closer look

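Of 96 groups checked for a sample standing apart from the rest, over 32 items, 6 were marked (6.25%), where chance marks about 1 in 20. For Rpl30, CHFD 4A was lowest in its group at 4.9288 (the others 10.797 to 11.474), and CND 36B was lowest in its group at 5.867 (the others 10.66 to 11.563). CHFD 28B stood apart in 3 members: it was lowest for Rpl3l at 6.0161 (the others 6.6482 to 6.7842) and for Rps24 at 6.8222 (7.531 to 7.6409), and highest for Rps3a at 12.951 (12.613 to 12.667). For Rps2, RND 17B was highest in its group at 10.972 (the others 10.157 to 10.298).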

How the results depend on the processing

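No member passed the threshold in any of the 7 comparisons under any of the 35 alternatives, and the lowest adjusted p of any member was 0.06 (diet averaged over birth status). Over all probes the count past the threshold ran from 5 to 250 for the diet in control rats (132 as reported), from 8 to 318 in IUGR rats (90) and from 126 to 742 averaged over birth status (436). It was at most 5 for IUGR on chow (0 as reported) and at most 3 for IUGR on the high-fat diet (1), IUGR averaged over diet (1) and the interaction (0). Of 1447 alternative values for single named members, 1436 kept their direction and 11 turned round. The medians over all members were not in this count. Over the alternatives other than leaving out 1 sample, they took both signs for the diet in control rats (-0.07 to 0.09), in IUGR rats (-0.26 to 0.04) and averaged (-0.15 to 0.08). So did those for IUGR on the high-fat diet (-0.08 to 0.13) and the interaction (-0.22 to 0.04). For IUGR on chow (0.005 to 0.31) and IUGR averaged over diet (0.01 to 0.19) they stayed above 0. The median of the members for the diet in IUGR rats was -0.26 with median scaling, against -0.03. On chip 2 alone the log2 difference turned to 0.0639 for Rpl7l1 (diet in control rats), 0.29 for Rpl30 and 0.11 for Rps3a (IUGR averaged over diet) and -0.0381 for Rps6 (interaction). On chip 1 alone it turned to -0.0245 for Rpl39 and 0.0889 for Rpl3l (IUGR on the high-fat diet). Median scaling gave -0.0141 for Rpl21 (diet averaged) and 0.0138 for Rps3a (IUGR averaged). Leaving out 1 sample at a time gave -0.175 to 0.0194 for Rpl6 and -0.289 to 0.0881 for Rpl3l (IUGR on the high-fat diet), and -1.47 to 0.0672 for Rpl30 (IUGR averaged). The cause was not tested. Members near background, such as Rplp2, are limited by signal. No paired analysis was possible because no title number occurs in 2 groups. In the fit of CHFD and CND alone the block correlation was taken from all 24 arrays.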
